A study of Bos taurus with 3 samples.

Results

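The 3′ UTR sites of an Argonaute map of the bovine retina are the subject here: stretches of mRNA, downstream of the stop codon, that stayed attached to Argonaute when retinal tissue was crosslinked. They were chosen by the authors' location class alone, as every site that the deposited tables place in a 3′ UTR, on either strand. That gave 223 of the 402 listed sites, in 180 genes, 103 of them read from the plus-strand table and 120 from the minus-strand one. The samples are 3 replicates of 1 group, Argonaute HITS-CLIP (sequencing of RNA recovered by crosslinking and immunoprecipitation) of retinas dissected from cattle of mixed strain, with no treatment and no control sample. Retinas were broken up into clumps of cells and crosslinked with ultraviolet light before Argonaute and its RNA were purified. The labels do not say whether the replicates came from separate animals, so p-values measure only the spread between these samples, which may be technical.

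As background, Argonaute is the protein that holds a microRNA (miRNA) and uses it as a guide. The bases at positions 2 to 8 of the miRNA, its seed, pair with a short match in the target mRNA, most often in the 3′ UTR. Argonaute then recruits TNRC6 proteins, which bring in the enzymes that shorten the poly(A) tail and block translation. Photoreceptors, the main cell type of the retina by number, are rich in a few miRNAs such as the miR-183/96/182 cluster. The deposited tables assign no miRNA to any site and name no genome build, so the sites are given here by gene and position, in the authors' coordinates counted from 1, without their sequence.

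Each 3′ UTR site was a peak in all 3 replicates, so the 223 sites comprised 669 peaks. The tags (sequenced fragments) in them numbered 3766, 3139 and 2159 in replicates 1, 2 and 3, and a median peak held 14, 11 and 7 tags in the same order. These sums leave out all reads outside listed sites, so how deep the libraries were is not known from them. The sites lay on 29 chromosomes, with 16 each on chromosomes 1 and 20, and 9 lay on scaffolds not placed on a chromosome. The mean of the 3 replicates ran from 5 to 60 tags per site. It was under 10 in 91 sites, from 10 to under 20 in 98, and 20 or more in 34. The lowest mean was also 5 tags among coding sites and among all sites outside 3′ UTRs. In every replicate the lowest significance score, 10 times −log10 of p, was above 200. Whether the authors set such limits is not given.

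The tallest 3′ UTR site was in GNAT1, the alpha subunit of the transducin that relays the signal of rhodopsin in rods. On chromosome 22 (50877454 to 50877801), it held 63, 80 and 37 tags in replicates 1, 2 and 3. Its peaks were 324, 318 and 157 nt long, so the shortest peak was the one with the fewest tags. The GNAT1 3′ UTR carried a further site upstream, at 50878106 to 50878224, with 13, 17 and 9 tags. CMTM4, a membrane protein of the MARVEL domain family, was next. Its site on chromosome 18 (33248848 to 33248999) was even across the replicates, with 48, 42 and 43 tags. The site of PDE6G, the inhibitory subunit of the rod phosphodiesterase, spanned 52243300 to 52243643 of chromosome 19 and gave 34, 54 and 41 tags.

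MAP1B, which binds microtubules in growing and mature axons, held 2 of the 10 tallest sites. At 10101390 to 10101558 of chromosome 20 the replicates had 49, 37 and 33 tags, and at 10104868 to 10105002 they had 42, 32 and 21. RGS9BP, the membrane anchor of the complex that speeds transducin shut-off, had 47, 36 and 23 tags in peaks of nearly equal length, 128, 131 and 132 nt. The calmodulin-binding transcription activator CAMTA2 (chromosome 19, 26629858 to 26630258) had 35, 40 and 26 tags. MAPK8, the stress-activated kinase JNK1, had 38, 35 and 24 tags at 42569192 to 42569352 of chromosome 28. LRRC58, a leucine-rich repeat protein, had 36, 33 and 23 tags, and XIAP, an inhibitor of caspases, had 34, 33 and 24. Together these 10 sites, in 9 genes, held 12.8% ± 1.30 of the tags in 3′ UTR sites (n = 3). Replicate 3 had the fewest tags in 8 of them; CMTM4 and PDE6G were the exceptions.

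**Figure D1:**
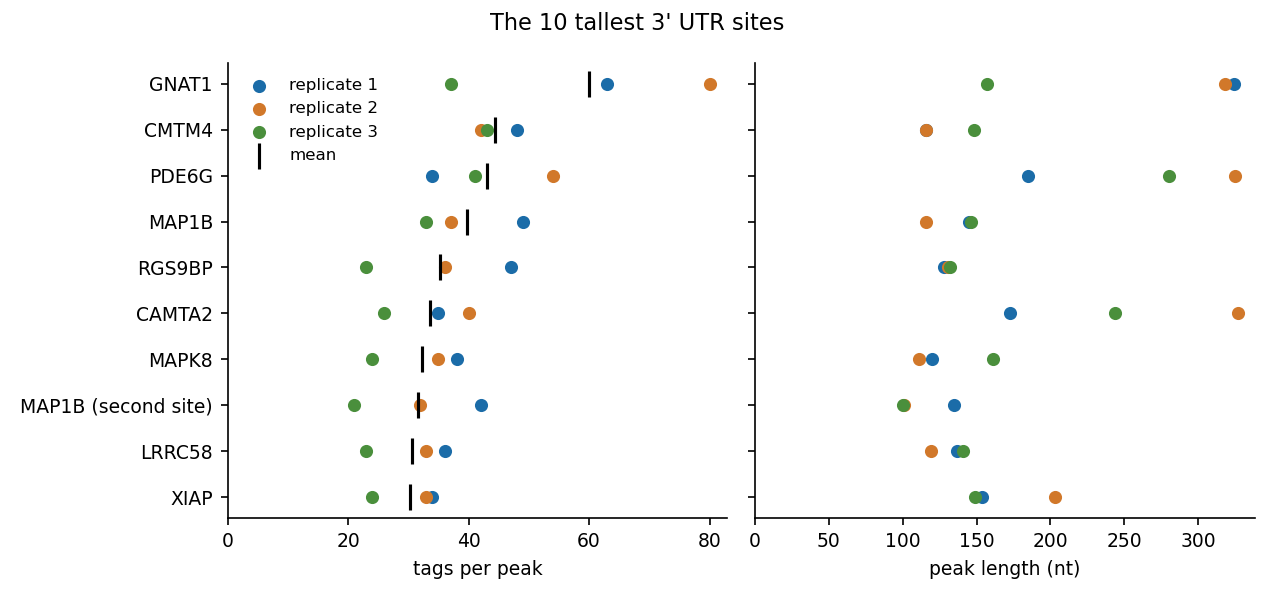
Tags per peak (left, x axis) and peak length in nt (right, x axis) of the 10 tallest 3′ UTR sites, one row per site; coloured points are the 3 replicates and black bars the mean. GNAT1 leads with 63, 80 and 37 tags, while the CMTM4 points lie between 42 and 48.

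The main comparison within the list is with the 81 sites in coding sequence, since both classes were read from the same 3 libraries. Peaks in 3′ UTRs were wider. Their median length was 89, 84 and 68 nt in replicates 1, 2 and 3, against 65, 63 and 55 nt for coding peaks, a difference of 19.3 ± 5.69 nt (SD, n = 3) that had the same sign in 3 of 3 replicates. An exact sign-flip permutation test over the replicates (two-sided) gave p = 0.25, the smallest value that 3 replicates allow, so no comparison of classes can pass a threshold of 0.05. From the minus-strand table alone the difference was 12.5 nt.

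Sites in 3′ UTRs also held more tags. The mean log2 tags were 3.78, 3.58 and 3.05 in the 3 replicates, against 3.42, 3.33 and 2.81 in coding sites, a difference of 0.29 ± 0.06 (exact sign-flip permutation test, p = 0.25, higher in 3 of 3 replicates). Against all 179 sites outside 3′ UTRs the difference was 0.15.

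Per length of peak, the sign of the difference varied. Mean log2 tags per 100 nt were 4.01, 3.79 and 3.62 in 3′ UTR sites, against 3.96, 3.89 and 3.69 in coding sites. The difference of -0.04 ± 0.08 was negative in 2 of 3 replicates (exact sign-flip permutation test, p = 0.5) and changed sign with the minus-strand table alone, where it was 0.069. The plus-strand table gave -0.16, and the comparison with all 179 sites outside 3′ UTRs also gave -0.16, each lower in 3 of 3 replicates (exact sign-flip permutation test, p = 0.25). The pile-up of tags at the summit, read from the steps of the authors' fold enrichment, had the same median in both classes: 7, 7 and 5 tags in 3′ UTR peaks and 7, 7 and 5 in coding peaks. As a mean of log2 pile-up the difference was 0.07 ± 0.05 (exact sign-flip permutation test, p = 0.25, 3 of 3 replicates). A 3′ UTR peak had a smaller share of its tags over the summit, with medians of 54.5%, 57.1% and 62.5% against 66.7%, 66.7% and 77.8% in coding peaks (difference -12.3 ± 2.88 percentage points, exact sign-flip permutation test, p = 0.25, 3 of 3 replicates). Pile-up, summit share and summit position were compared after their values had been seen. Tags and length are linked, across sites, in both classes, with Spearman correlations of 0.683, 0.709 and 0.688 over 3′ UTR sites and 0.672, 0.689 and 0.706 over coding sites. Points share the caller that set the peak's ends, so these are descriptions. Over all 402 sites, no peak in any replicate held more tags than its length minus 19 nt, and no summit pile-up exceeded 20 tags. A longer peak could thus hold more tags, so tags, density and pile-up are not free counts. What set these bounds was not tested.

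**Figure D2:**
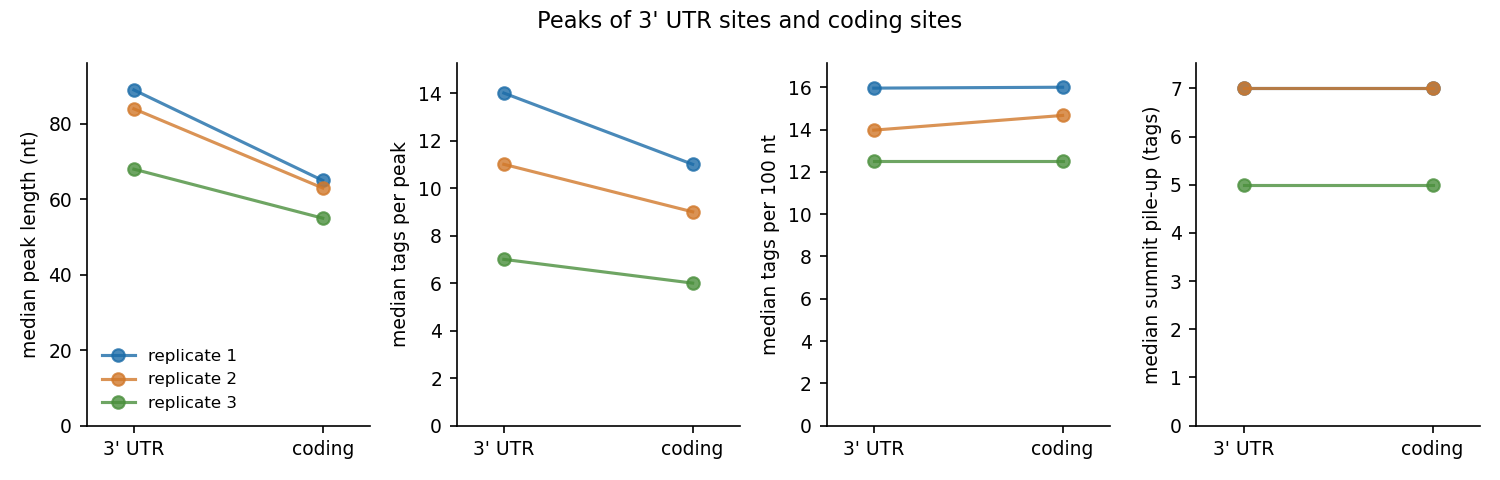
Median peak length in nt, tags per peak, tags per 100 nt and summit pile-up in tags (y axes, from 0) for the 223 3′ UTR sites (left in each panel) and the 81 coding sites (right); each line is 1 replicate. Length and tags are higher in 3′ UTR sites in every replicate, while the pile-up is 7, 7 and 5 in both classes, with replicates 1 and 2 on the same line.

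Summits in 3′ UTR peaks tended to lie towards the 3′ end of the peak. In the direction of transcription, 142, 145 and 155 of the 223 summits lay past the middle of the peak in replicates 1, 2 and 3 (63.7%, 65.0% and 69.5%). In coding sites 40, 45 and 48 of the 81 did (49.4%, 55.6% and 59.3%). The difference was 11.3 ± 2.59 percentage points (exact sign-flip permutation test, p = 0.25, 3 of 3 replicates).

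The amount of mRNA was not measured, so a site's tags cannot be set against the abundance of its transcript, and in dissected tissue fewer cells of a type and less RNA per cell cannot be told apart. Sites of both classes in the same gene at least share its expression, apart from isoforms, and 16 genes had such sites, with 28 sites in 3′ UTRs and 32 in coding sequence. Within these genes the mean 3′ UTR peak was longer by 36.5 ± 5.77 nt (SD, n = 3), with means of 104, 123 and 107 nt against 74.1, 81.1 and 69.8 nt for coding peaks of the same genes. Log2 tags differed by 0.58 ± 0.12 (exact sign-flip permutation test, p = 0.25 for both, 3 of 3 replicates). The 3′ UTR sites were higher on the mean of the replicates in 12 of the 16 genes for tags and in 13 for length. Per 100 nt the difference within genes was 0.04 ± 0.05 (exact sign-flip permutation test, p = 0.5, 2 of 3 replicates). Log2 pile-up at the summit was higher in the 3′ UTR sites by 0.20 ± 0.12 (exact sign-flip permutation test, p = 0.25, 3 of 3 replicates). This was a larger difference than the 0.07 over all sites of both classes. On the mean of the replicates, pile-up was higher in 10 of the 16 genes and tags per 100 nt in 9. The within-gene comparison was chosen after the data were seen.

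The authors' classes can be set against position in these 16 genes. In 16 of 16 genes, 8 on each strand, every 3′ UTR site lay downstream of every coding site. By definition a 3′ UTR lies downstream of the stop codon, so this order follows from the labels and is no independent check. The nearest sites of the 2 classes were between 431 nt apart, in GNAT1, and 132198 nt, in HIPK2, along the genome. The taller class differed by gene. In 11 genes the tallest site was in the 3′ UTR: SLC4A7, a sodium bicarbonate cotransporter, had 71, 53 and 35 tags in its 2 3′ UTR sites and 19, 11 and 10 in its coding site. In SBNO1 the tags were 31, 30 and 10 in the 3′ UTR and 11, 9 and 4 in coding sequence, and in the Ras regulator NF1 they were 35, 12 and 9 against 14, 9 and 5. HIPK3, IMPG2, RP1, TNRC6B, MAP1B, GNAT1, PDE6G and EPM2AIP1 were the others. In 4 genes the tallest site was coding. SAG, the rod arrestin, had 9, 12 and 6 tags in its only 3′ UTR site, on chromosome 3 (119381139 to 119381203), against 67, 61 and 50 summed over 6 coding sites. GNB1, the beta subunit of transducin, had 18, 11 and 9 in the 3′ UTR against 46, 61 and 35 over 4 coding sites. RBP3, the retinoid carrier between photoreceptors and pigment epithelium, and the kinase HIPK2 completed this set. In PRPH2 the tallest sites of both classes averaged 16.7 tags. A few genes with a 3′ UTR site had sites of a further class: MBNL2 in its 5′ UTR, and DPYSL3, FAM57B and PCMTD2 in introns.

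How exactly the replicates placed a 3′ UTR site was measured by the distance between the outermost of its 3 summits. The median was 12 nt (quartiles 6 and 22, range 0 to 39), against 7 nt (quartiles 4 and 15, range 0 to 38) for coding sites. Summits fell within 10 nt of each other in 102 of 223 3′ UTR sites (45.7%) and in 53 of 81 coding sites (65.4%). For each pair of replicates, the median distance was 7 nt (replicates 1 and 2), 7 nt (1 and 3) and 6 nt (2 and 3) in 3′ UTR sites, against 5, 6 and 4 nt in coding sites. As a share of the mean peak length, the median spread was 14.3% in 3′ UTR sites and 11.7% in coding sites. No test over replicates can be made of a value that is itself a spread over them. No spread exceeded 39 nt in either class, and whether the authors set a limit is not given.

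Summit agreement in nt hardly followed height. The median spread was 12.5 nt in the 34 sites of 20 tags or more, 12 nt in the 98 of 10 to under 20, and 11 nt in the 91 below 10. Because taller sites had longer peaks, the spread was 8.10% of the peak length in the tallest of these bins, 13.4% in the middle one and 19.9% in the lowest. Across the 223 sites the Spearman correlation of mean tags with summit spread was -0.088, a description over sites from the same libraries. The median spread was 14 nt on the plus strand and 10 nt on the minus strand. All 3 peaks of a site shared at least 17 nt, and the median shared stretch was 49 nt, or 44.6% of the whole site. The extremes show the range. TMEM62 had peaks of exactly 29 nt with the same summit in all 3 replicates, and 6, 4 and 5 tags. MBNL2, a splicing regulator, also had a spread of 0, with 15, 11 and 6 tags in its 3′ UTR site. TNRC6B and XIAP had the largest spread, 39 nt, in sites with 24, 11 and 8 tags and with 18, 28 and 9 tags. A spread of 38 nt followed at 4 sites, among them one of EMBP1, with peaks of 249, 253 and 170 nt. The other narrowest sites were those of TRIB2, a pseudokinase (38, 24 and 29 nt), and NT5E, an enzyme that makes adenosine (46, 23 and 27 nt). GNAT1, PDE6G and CAMTA2 had the widest, with mean lengths of 266, 263 and 248 nt.

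**Figure D3:**
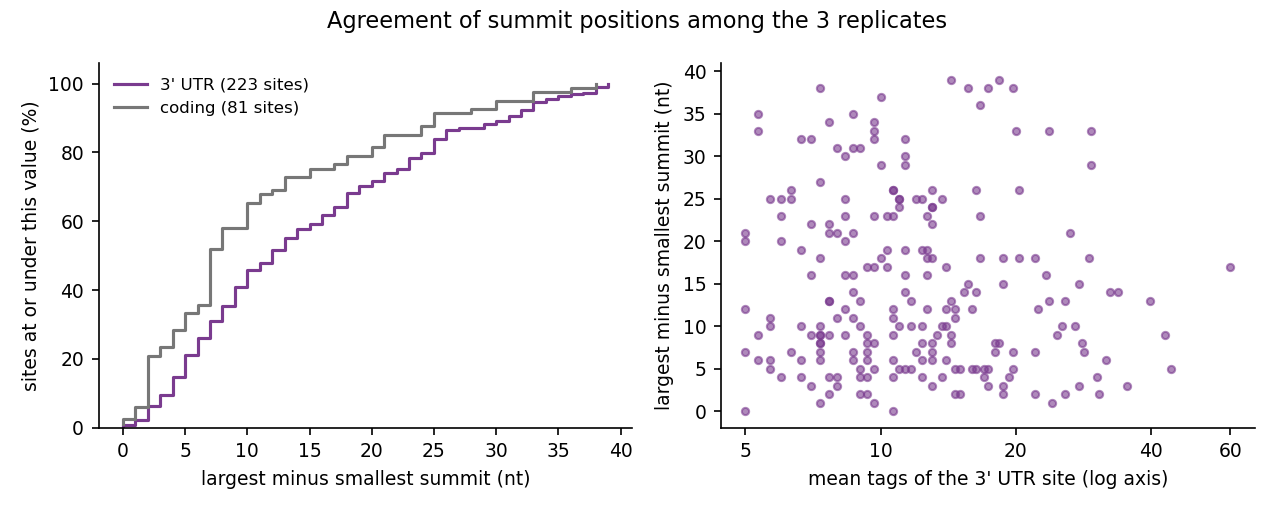
Left, share of sites (y axis, percent) whose 3 summits lie within the distance on the x axis (nt), for 223 3′ UTR sites and 81 coding sites. Right, summit spread (y axis, nt) against mean tags (x axis, log scale) for each 3′ UTR site. The medians are 12 and 7 nt, no spread exceeds 39 nt, and low and tall 3′ UTR sites cover much the same range.

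Most 3′ UTRs held 1 listed site. Of the 180 genes, 149 had 1 and 31 (17.2%) had 2 or more, and these 31 held 74 sites. There were 23 genes with 2 sites, 5 with 3, 2 with 4 and 1 with 5. With sites whose summits lay within 1000 nt merged, 18 genes had 2 or more. With only sites whose 3 peaks reached the median significance score of all peaks, 4 did. That filter kept 53 of the 223 3′ UTR sites, which lowers the count by construction. Sites of genes with several were taller than single sites, by 0.14, 0.55 and 0.20 on the log2 scale in replicates 1, 2 and 3 (mean 0.30 ± 0.22, exact sign-flip permutation test, p = 0.25, 3 of 3 replicates). Their peaks were also longer, with a median mean length of 101 nt against 74.3 nt. Per 100 nt the difference was -0.10, without the tallest site of each gene with several, which lowers the difference by construction, it was -0.014, without replicate 2 it was 0.17, and in the plus-strand table it was 0.055.

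TNPO1, a nuclear import receptor, had the most 3′ UTR sites. Its 5 sites spread over 4448 nt of chromosome 20 (9341835 to 9346420), with 88, 104 and 64 tags in all. In the direction of transcription they averaged 12.7, 23.3, 11, 22 and 16.3 tags, with steps of 523, 252, 986 and 2687 nt between neighbouring summits. No site dominated: the tallest held 27.3% of the gene's tags. MAP1B had 4 sites over 3869 nt, in which tall and low sites took turns: 10.3, 31.7, 9 and 39.7 tags on average. Its totals were 105, 93 and 74 tags, the largest mean of any gene, 90.7.

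TNRC6B had 4 sites over the longest stretch, 11402 nt of chromosome 5 (118216930 to 118228435), apart from TMEM170B below. It encodes the protein that Argonaute itself recruits for silencing. Its tags summed to 50, 45 and 29, and its first pair of sites was the closest of all: they were separated by 10 nt, with summits 157 nt apart. The kinase HIPK3 had 3 sites that declined along the transcript, averaging 29.3, 16 and 12.3 tags, whereas those of XIAP increased, with 8, 18.3 and 30.3. PPP3R1, the regulatory subunit of calcineurin, had 27.7, 16.7 and 8.33 tags along 1057 nt of chromosome 11. C1H21ORF91 and EMBP1, a name that in human belongs to an embigin pseudogene and that the gene table lacks, also had 3 sites.

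**Figure D4:**
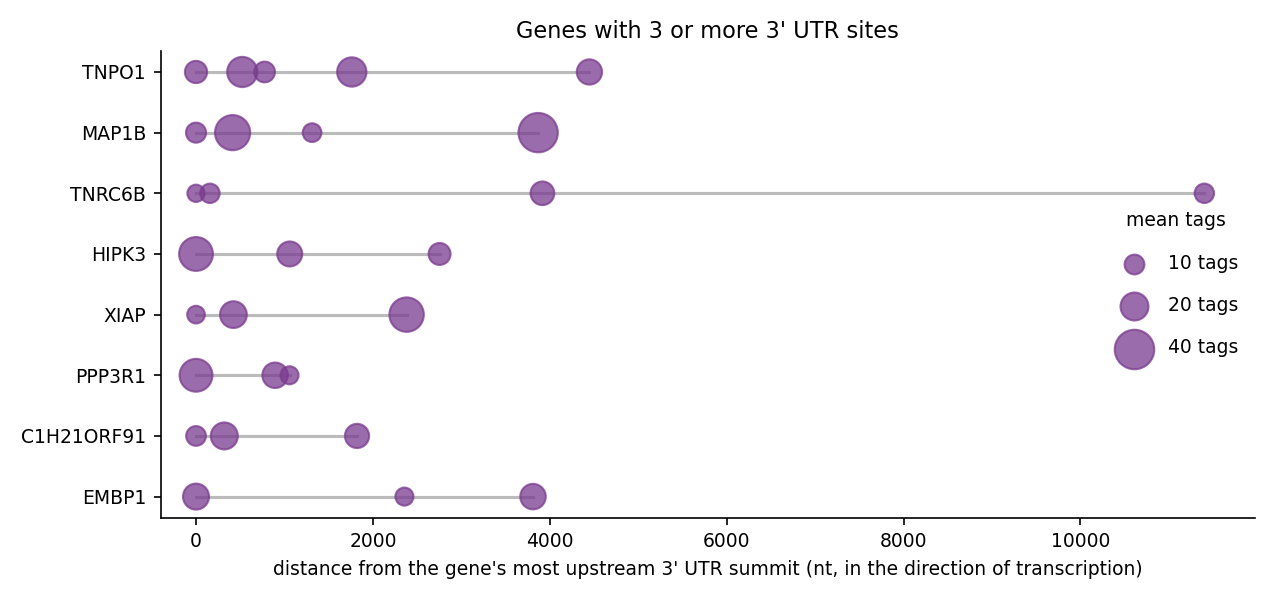
The 8 genes with 3 or more 3′ UTR sites. The x axis is the distance in nt from the most upstream summit, in the direction of transcription, and the area of a point follows the site's mean tags. TNPO1 has 5 sites over 4448 nt, and the sites of TNRC6B span 11402 nt.

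The 31 genes gave 43 pairs of neighbouring sites. The median distance between their summits was 986 nt (quartiles 500 and 2282), and 5 pairs were under 300 nt, 11 under 500 nt and 22 under 1000 nt. After TNRC6B the closest pairs were in PPP3R1 (163 nt) and TPD52 (209 nt). TPD52, a protein of vesicle traffic, had 41, 31 and 15 tags in its upstream site and 20, 19 and 12 in the downstream one. The pair in TMEM170B stood apart: both sites were classed as 3′ UTR, on the same strand of chromosome 23, but their summits were 376522 nt apart. The farthest of the other 42 pairs, in TNRC6B, was 7485 nt apart. Whether both TMEM170B sites belong to 1 transcript was not tested. The replicates had the same tallest site in a gene in 16 of the 31 genes. By the mean of the replicates, over all 31 genes, the tallest site was the most upstream in 12 and the most downstream in 16. In 3 it lay between others, which only the 8 genes with 3 or more sites allow.

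Genes were looked up in lists by role, which had been written with earlier results of these data known. These lists left out 130 of the 180 genes. Over all lists, 50 of 719 members had a 3′ UTR site (6.95%), a share of list members and not of all genes. The best sites of the 180 genes had a median of 11.3 tags. Of 34 phototransduction genes 6 had one (17.6%, median best site 24 tags). GNAT1, PDE6G and RGS9BP led. GNAT2, the cone counterpart of GNAT1, had 14, 12 and 12 tags on chromosome 3 (36323019 to 36323142), and GNB1 and SAG completed the list. A further 8 phototransduction genes had sites in other classes only. Of 28 genes of the outer segment and cilium 3 had 3′ UTR sites: PRPH2, which shapes disc rims, with 26, 14 and 10 tags in the taller of 2 sites; RP1, a microtubule protein of the axoneme; and CRB1, a polarity protein at the outer limiting membrane, with 12, 6 and 6 tags. PRCD, a disc protein outside the gene table, had 12, 10 and 7 tags in its 3′ UTR. The photoreceptor gene C2ORF71, also outside the gene table and in no list, had a taller site than these, with 46, 15 and 16 tags. None of 19 retinal transcription factors had a 3′ UTR site.

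Genes that feed and surround photoreceptors were next. Of 22 genes of the interphotoreceptor matrix, retinoid and lipid supply, 5 had a 3′ UTR site (22.7%, median best site 17 tags). ELOVL4, which makes very long chain fatty acids for photoreceptor membranes, had 27, 35 and 17 tags on chromosome 9 (20036229 to 20036512). RDH10, a retinol dehydrogenase, had 18, 19 and 14. The matrix proteoglycans IMPG1 and IMPG2 had 14, 11 and 7 tags and 7, 17 and 5 tags in their best sites. RBP3 had 13, 28 and 18.

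Signalling genes gave the most members, 9 of 87 (10.3%, median best site 19.7 tags). Besides MAPK8, XIAP, HIPK3 and PPP3R1 they included relatives of HIPK3, so that HIPK1, HIPK2 and HIPK3 each had a site. HIPK1 had 7, 13 and 14 tags in its taller site, and HIPK2 had 7, 6 and 3. PPP2CA, the catalytic subunit of protein phosphatase 2A, had 14, 6 and 8, and the kinase MAP3K1 had 11, 10 and 4.

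Of 66 genes of miRNA silencing and RNA binding, 6 had a 3′ UTR site (9.09%, median best site 10.7 tags). Argonaute 2 itself, listed by the authors under its older name EIF2C2, had 15, 10 and 4 tags on chromosome 14 (2422667 to 2422777). HNRNPU, a nuclear matrix and RNA-binding protein, had 28, 22 and 11 tags, the splicing factor SRSF6 22, 5 and 5, and ZFP36L2, which binds AU-rich elements in mRNA, 14, 5 and 9.

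Cytoskeleton and transport genes with a 3′ UTR site were 4 of 45 (8.89%, median best site 20 tags): MAP1B, DPYSL3, ACTG1 and MAP2. The cytoplasmic actin ACTG1 was even, at 16, 15 and 13 tags, and MAP2, the dendritic counterpart of MAP1B, had 7, 13 and 6 in its taller site. Of 49 ion pumps, channels and transporters 5 had one (10.2%, median 13.7 tags). SLC4A7 had 37, 28 and 20 tags in the taller of its sites, and the sodium pump subunit ATP1B2 25, 24 and 12. The amino acid carrier SLC38A1 had 9, 23 and 9, and the potassium channel subunit KCNV2 9, 14 and 10.

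In membrane traffic 4 of 65 genes had a 3′ UTR site (6.15%). They included CMTM4 and RAB1A, a GTPase between endoplasmic reticulum and Golgi, with 24, 8 and 7 tags. TNPO1 was also counted in this list and held 5 of its 8 sites, though it acts in nuclear import. Of 79 regulators of transcription and chromatin 4 did (5.06%). They were CAMTA2 and its relative CAMTA1, the methylcytosine oxidase TET2 with 12, 15 and 8 tags, and JARID2, a cofactor of Polycomb complexes, with 6, 7 and 6. Single members were found for ubiquitin and proteostasis (RNF11, 1 of 52, with 12, 22 and 5 tags), energy metabolism (GOT2, 1 of 46, with 27, 14 and 7) and presynaptic release (VAMP2, 1 of 35, with 9, 7 and 7). Of 17 ganglion cell markers 1 had a 3′ UTR site (UCHL1, 5.88%, with 13, 7 and 8 tags), and 0 of 14 Müller glia, 15 bipolar, 19 amacrine and horizontal, 15 pigment epithelium, 17 blood and microglia and 17 vascular markers had one. With 14 to 19 genes a list, these counts were not tested against the 6.95% over all lists. Peaks below the authors' threshold are not in the tables, so a gene without a site is not shown to be unbound.

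Tags at a minority of 3′ UTR sites differed among the replicates by more than counting error. An exact multinomial test per site, with Benjamini-Hochberg adjustment over all 402 sites, called 10 of the 223 (4.48%), close to the share over the whole list, 4.98% (20 sites). Before adjustment 39 of the 223 had p below 0.05, against 59 of 402. The RP1 site had 7, 9 and 25 tags, the widest departure (exact multinomial test, adjusted p = 0.000402), and replicate 3 was alone in being high. In C1H21ORF91 replicate 2 was the high one, with 15, 35 and 6 tags in one site and 10, 30 and 5 in another (exact multinomial test, adjusted p = 0.00327 for both). Its remaining site leaned the same way, with 6, 18 and 6. DPYSL3, a regulator of axon growth, had 49, 17 and 10 tags (exact multinomial test, adjusted p = 0.00327), highest in replicate 1.

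The same replicate led in PCGF5, a Polycomb component (30, 8 and 5 tags), in FNTA, the alpha subunit of farnesyltransferase (31, 11 and 5), and in the photoreceptor gene C2ORF71 (46, 15 and 16). ADNP2 (28, 10 and 4) also belonged to the 6 sites highest in replicate 1, and the exact multinomial test gave these 4 genes adjusted p between 0.0139 and 0.0322. CADM1, a cell adhesion molecule, was highest in replicate 3 (6, 10 and 18 tags, exact multinomial test, adjusted p = 0.0269). In each of the 10 sites the replicate with the most tags after scaling also had the longest peak: in C2ORF71 the peaks were 240, 48 and 48 nt long, and in RP1 47, 48 and 221 nt. Over all 223 sites that held for 138 (61.9%). No peak had more tags than its length minus 19 nt, so length is not independent of tags. Neither this link nor the next test can therefore decide whether peak length accounts for the differences. With expected tags made proportional to peak length, the exact multinomial test called 0 of the 223, against 2 of 402 over the whole list (0.498%); before adjustment 13 of the 223 and 30 of the 402 had p below 0.05. With the pile-up at the summit in place of tags it called 0 of 223 and 0 of 402 (0.0%), with 3 and 6 below 0.05 before adjustment. Without replicate 1, 2 or 3 in turn, 3, 3 and 5 of the 223 were called, against 6, 8 and 12 of the 402 (1.49%, 1.99% and 2.99%).

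**Figure D5:**
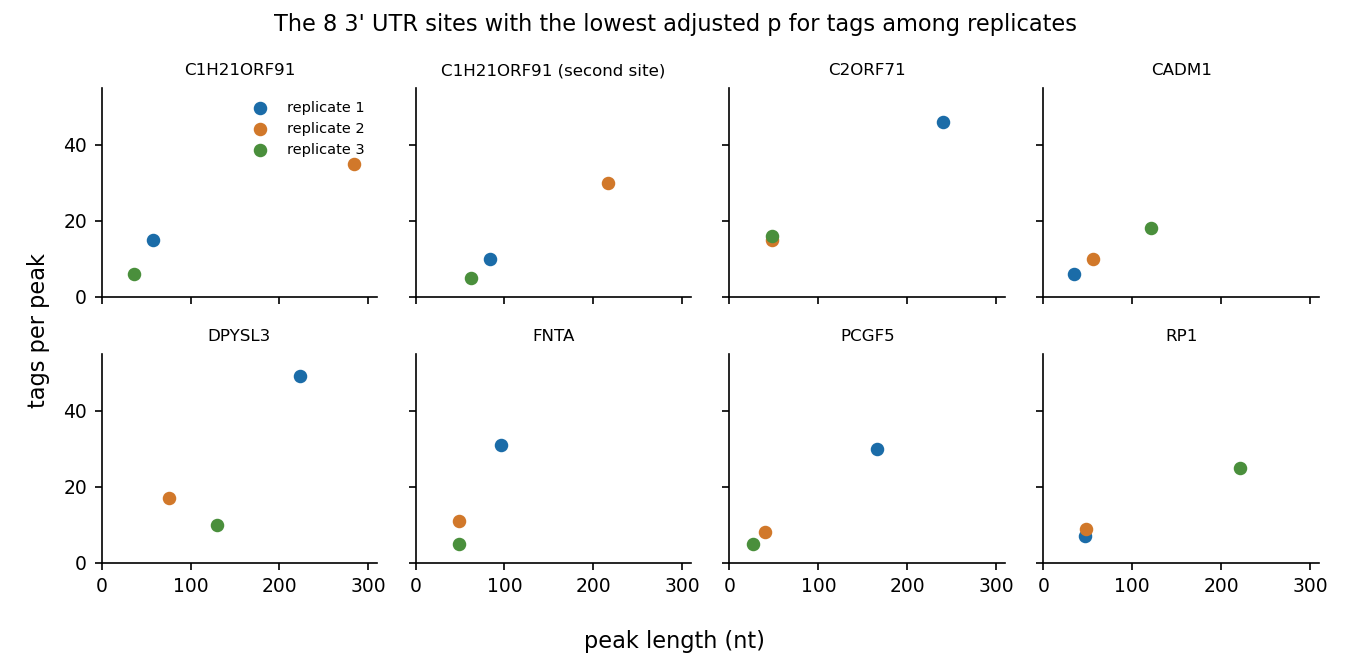
Tags per peak (y axis) against peak length in nt (x axis) in the 3 replicates (coloured points) for the 8 3′ UTR sites with the lowest adjusted p in the test of tags among replicates. In each panel the replicate with the most tags has the longest peak, as in RP1, where replicate 3 has 25 tags over 221 nt.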

How the data were processed

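The authors deposited 1 table per strand, pairing each site's gene and location class with its peak in each of 3 replicates of bovine retina. CASAVA 1.8.1 and GSNAP are named, per the submitters' processing notes, without a role. Which peak caller, site rule and genome build were used is not stated in the labels or headers. Tags are counts per peak, per the file headers. The significance score, 10 times −log10 of p, and the fold enrichment, a ratio, are the authors' values, per the file headers. The fold enrichment was a whole multiple of 1 step per table and replicate in all 1206 peaks, within 0.01 of a step, and was read as summit pile-up. One column without a usable name repeats the mean tags and was not used.

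Python 3.11.15, numpy 2.4.6, pandas 2.3.3 and scipy 1.17.1 were used, with matplotlib 3.10.9. Tags were not scaled except in the multinomial test, which used median ratios (1.20, 1.04 and 0.761). That test was also run on simulated counts that, unlike these tags, had no bound by peak length. How well it performs on tags with such a bound is therefore not shown. Tags carry no described molecular identifiers, so counting error alone is covered. The test does not take account of the bound of tags by peak length. At which sites this matters most was not tested. Whether copies of a tag had been removed was not tested. Gene names were matched to the RefSeq table of ARS-UCD2.0 for names only: of the 180 names, 168 matched a symbol, 6 a synonym and 6 none, and 6 of 749 list entries were not found.

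Named sites are the 10 tallest, the 3 widest, the 3 narrowest and the 3 with the largest summit spread, genes with 3 or more sites, with both classes or past the multinomial test, the 3 closest and 3 farthest pairs, and up to 4 genes per list; others, including the further genes of each list, were picked after their values were seen. Some sites under this rule are not reported here. Members, lists and tests were chosen with earlier results of these data known.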

Additional observations from a re-analysis of the deposited data

How the results depend on the processing

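Differences in peak length and in tags between 3′ UTR and coding sites kept their sign in 9 and 10 alternatives, from 12.5 to 24.3 nt and from 0.066 (fold enrichment in place of tags) to 0.37. Leaving out 1 replicate gave 17 to 22.5 nt and 0.25 to 0.31. Tags per 100 nt changed sign in the minus-strand table (0.069) and with significant peaks only (0.034), and ran from -0.086 to -0.012 without 1 replicate; the plus-strand table gave -0.16, as did all sites outside 3′ UTRs. Genes with several sites against single ones changed sign per 100 nt (-0.10) and without each gene's tallest site (-0.014), and gave 0.17 to 0.38 without 1 replicate; the plus-strand table gave 0.055. Removing the tallest site lowers that difference by construction; the causes of the other reversals were not tested. The alternatives per 100 nt and without the tallest site in genes with several sites, and with summit pile-up, were chosen after seeing the data. The summit spread was 6 to 7 nt between any pair of replicates, where fewer summits lower it by construction, 23 nt with midpoints, 10 nt with significant peaks, and 14 and 10 nt in the plus- and minus-strand tables. Counts of sites beyond counting error were 0 with peak length, 0 with summit pile-up and 3 to 5 without 1 replicate, against 2, 0 and 6 to 12 over all 402 sites. Peak length is not independent of tags, so the 0 with peak length does not show that length accounts for the counts. Genes with several sites numbered 18 with sites within 1000 nt merged and 4 with significant peaks only; each strand table alone held 8 of the 16 genes with both classes, by construction. Significant means that all 3 peaks reached the median significance score, 385. This held for 53 of the 223 3′ UTR sites and 11 of the 81 coding sites. No paired analysis was possible because there is 1 group; classes were compared within each replicate.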

Other observations

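Of the 180 genes with a 3′ UTR site, 130 were in no list. The groups that follow were put together after the gene names were seen, so they carry no test. Transcription and chromatin genes outside the lists numbered 13, with best sites between 5.33 and 25.7 tags. They included AFF1 and its relative AFF4, both scaffold proteins of transcription elongation, with 32, 23 and 22 tags and 5, 6 and 5 tags in the best sites. POU2F1, an octamer-binding factor, had 35, 16 and 15, the BMP signal mediator SMAD5 29, 16 and 13, and the circadian factor CLOCK 16, 8 and 5. RNA processing genes numbered 8. TROVE2, the Ro autoantigen that binds small non-coding RNAs, led with 44, 20 and 17 tags. HNRNPF and its relative HNRNPH2 had 27, 16 and 9 and 23, 11 and 10 tags, and ZCCHC11, a uridylyl transferase that acts on miRNA precursors, had 20, 12 and 7.

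Enzymes of glycans and glycosaminoglycans were 7, among them MAN2A1, a Golgi mannosidase, with 17, 30 and 9 tags in its taller site, and GALNT10 with 15, 19 and 18. Lipid and sterol handling had 7 genes, led by the lipoprotein receptor VLDLR with 27, 16 and 11 tags, and including the cholesterol exporter ABCA1 with 7, 8 and 5 in its taller site. Adhesion molecules and the Notch ligand JAG1 made 5, with best sites from 6 to 12.3 tags. JAG1 had 14, 14 and 9. The leucine-rich repeat proteins LRIT2 and LRIT3 had 32, 23 and 12 tags in the taller of 2 sites and 9, 7 and 6 in 1 site. Smaller groups held mitochondrial carriers (2 genes), translation initiation factors (2) and enzymes of ubiquitin attachment and removal (4). The other 80 genes were not grouped, and their best sites had a median of 10.7 tags, with LRRC58 the tallest.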
